A study of Homo sapiens with 6 samples.

Results

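Transcripts of 10 genes whose proteins bind AU-rich elements were examined in PC-3 prostate cancer cells: ZFP36, ZFP36L1, ZFP36L2, ELAVL1, HNRNPD, KHSRP, TIA1, TIAL1, AUH and PCBP2. The rule named them by symbol, from what their proteins are known to do, and used no measured value, though they were proposed with earlier results of these data known. All 10 were found among the 22933 gene symbols of the deposited table. ZFP36 encodes tristetraprolin (TTP), the protein whose transgene defines the study's groups. Where a symbol stood at more than 1 locus, the locus with the most RefSeq names was used, and this applied to ZFP36L1 only.

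PC-3 is an established human line of prostate adenocarcinoma cells, derived from a bone metastasis. All cells carried the reverse tetracycline transactivator rtTA2 from a first retrovirus, and the transduced cells were selected with G418. The tdTom group then received a retrovirus with the inducible Tight promoter and no TTP, and the TTP-tdTom group received one with TTP behind that promoter. In both, the fluorescent protein tdTomato was driven by the separate PGK promoter and the cells were sorted by flow cytometry, so each group was a sorted population of transduced cells. There were 3 samples per group, 6 in all, and both groups were collected after 4 h in 300 ng/ml doxycycline (Dox), the drug that lets rtTA2 switch on the Tight promoter. RNA-Seq was performed to find early effects of TTP on transcripts.

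The deposited values are FPKM, fragment counts adjusted for the length of the transcript and the size of the library, which puts genes of different length on a common scale. Each locus has 1 pooled FPKM value per group, which stands for 3 samples without showing their spread. A value here therefore has no standard deviation, no test was run on it, and every difference is a description. The labels state a target number of read pairs per sample, but the depth reached cannot be read from FPKM. A gene counted as expressed when either group had an FPKM of at least 1 and neither was at 0, which held for 13004 symbols and for all 10 genes. Folds and log2 ratios compare the group labelled TTP-tdTom with the tdTom group, and a negative log2 ratio means a lower FPKM in the former. FPKM in bulk RNA cannot tell fewer expressing cells from less RNA per cell.

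AU-rich elements are stretches of A and U in the 3′UTR that set how long an mRNA lasts and how well it is translated. TTP and its relatives ZFP36L1 and ZFP36L2 grip the core UAUUUAU with paired CCCH zinc fingers and bring in the CCR4-NOT deadenylase, which shortens the poly(A) tail and starts decay. KHSRP and HNRNPD (AUF1) also promote decay of such mRNAs, ELAVL1 (HuR) and PCBP2 are best known for stabilising mRNAs, and TIA1 and TIAL1 hold back translation and gather in stress granules. AUH binds AU-rich RNA too, and is a mitochondrial enzyme of leucine breakdown. Several of these proteins bind their own or each other's mRNAs, which is why their transcripts are of interest when TTP is induced.

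The 3′UTRs of 6 of the 10 genes held the core motif of TTP binding. They are shown because they mark which of the 10 transcripts have the sequence TTP is known to recognise. Capitals mark the nonamer UUAUUUAUU or, where a 3′UTR has no nonamer, the heptamer UAUUUAU, each with up to 10 bases on either side, 5′ to 3′ in the RNA sense:
ZFP36: uaugacgacuUUAUUUAUUcuaauaugau
ZFP36L1: aacuguuggaUUAUUUAUUuuagaaauuc
ZFP36L2: acuauuuaacUUAUUUAUUaucuugugaa
ELAVL1: auuuauguauUUAUUUAUUgaagugugaa
TIA1: agauacaaugUAUUUAUuuaaaagauu
TIAL1: aaaaugaaaaUAUUUAUuuuaaaaauu

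These sequences come from GENCODE release 29, whose build is GRCh38, and the positions that follow are in that build. The ZFP36 nonamer lies at chr19:39409206-39409214 on the plus strand, from base 507 of a 3′UTR of 713 bases. The ZFP36L1 nonamer lies at chr14:68788087-68788095 on the minus strand, from base 1438 of 1871. The ZFP36L2 nonamer lies at chr2:43223458-43223466 on the minus strand, from base 853 of 1917. So every ZFP36 family gene had 1 nonamer, and each had 3 heptamers in all, counting overlapping copies and the one inside the nonamer. ELAVL1 had its 1 nonamer at chr19:7961838-7961846 on the minus strand, from base 1637 of a 3′UTR of 4904 bases, and 5 heptamers. TIA1 had 1 heptamer, at chr2:70212601-70212607 on the minus strand, from base 112 of 3275. TIAL1 had 1 heptamer, at chr10:119575566-119575572 on the minus strand, from base 93 of 3863.

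Length matters to such counts. The search read the sense strand of 3′UTRs for 11816 expressed genes, and 35.1% of them held the heptamer and 9.20% the nonamer. Among 3′UTRs within 20% of its length, ZFP36's 3 heptamers were matched or exceeded in 1.32%, the densest of the 10 at 4.21 heptamers per kb. The same share was 4.76% for ZFP36L1, 4.63% for ZFP36L2 and 4.93% for ELAVL1. For TIA1 and TIAL1 it was 59.1% and 64.3%, so 1 heptamer is common in a 3′UTR that long. The 3′UTRs of HNRNPD, KHSRP, AUH and PCBP2 held neither motif, which says only that these letters are not in those windows.

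FPKM was lower in the group labelled TTP-tdTom than in the tdTom group for each of the 10 genes, by very different amounts. At ZFP36 the values were almost equal, at 5.54 FPKM and 5.56 FPKM in tdTom, and no direction is read there. Their log2 ratios ran from -1.25 for ZFP36L2 to -0.0044 for ZFP36, with a median of -0.41. Of the 10, 4 were lower by a fold of at least 1.5 (ZFP36L1, ZFP36L2, TIA1 and AUH), 1 by a fold of at least 2 (ZFP36L2), and none was higher by 1.5. Across the 13004 expressed genes, 22.8% were lower by 1.5, 8.65% were lower by 2 and 3.9% were higher by 1.5, with a median of -0.23. Ratios below 0 were the rule here, at 78.5% of expressed genes, so the direction of the members is read against that. Of all genes past 1.5, 85.4% were lower. This became 68.4% when each ratio was centred on the median of expressed genes, and 60.4% when every symbol above 0 in both groups was counted. With an FPKM of at least 10 required in a group it was 97.5%. Rescaling the groups to the same sum over all loci made it 0.0771%, a sum of which loci without a symbol held 99.8% in tdTom and 98.4% in the other group. Centring left ZFP36L2 alone past 1.5 and put ZFP36, HNRNPD and KHSRP above 0, equal totals over named loci put ZFP36 and HNRNPD above 0, and the scaling over all loci put all 10 above 0.

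**Figure D1:**
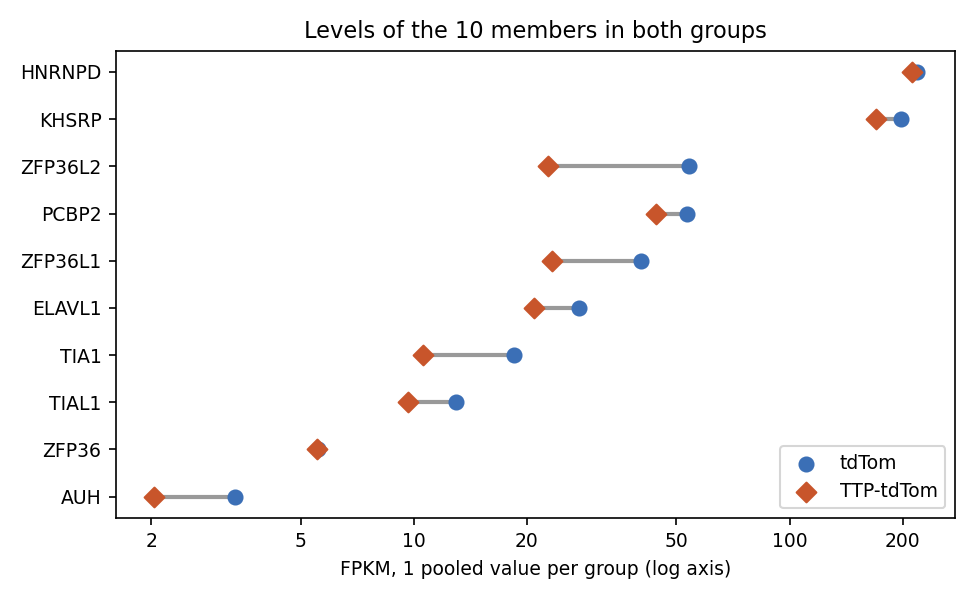
FPKM of the 10 genes in the tdTom and TTP-tdTom groups on a log axis, 1 pooled value per group, so no error bars can be drawn. HNRNPD and KHSRP sit far above the rest at 218 and 198 in tdTom, and the gap between the groups is widest for ZFP36L2, from 53.9 to 22.7.

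**Figure D2:**
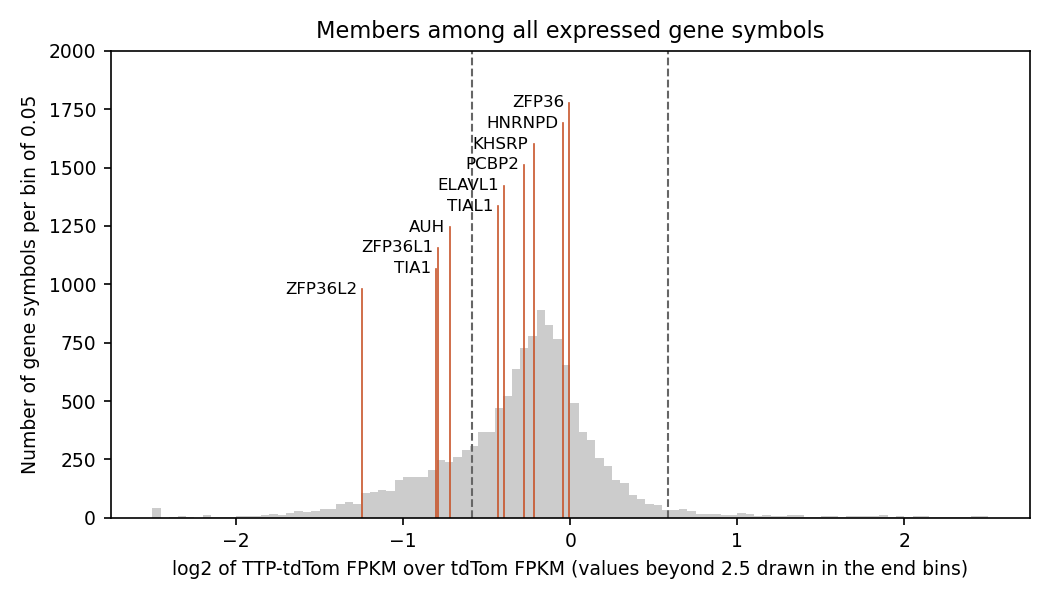
Distribution of log2 ratios (TTP-tdTom FPKM over tdTom FPKM) over the 13004 expressed genes, as symbols per bin, with a labelled line at each of the 10 genes (line heights only separate the names) and dashed lines at a fold of 1.5. The members lie from -1.25 (ZFP36L2) to -0.0044 (ZFP36) around the median of all expressed genes at -0.23.

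ZFP36 is the gene of TTP itself, at chr19:39897487-39900052 in GRCh37, the build of the deposited coordinates. It had 5.56 FPKM in the tdTom group and 5.54 in the group labelled TTP-tdTom, or 99.7% of the control level. The targeted gene was therefore not higher in the group labelled TTP-tdTom at its own locus. A transcript of the transgene would add to this value only if its reads were aligned there, which was not tested, so the group name is used as the label gives it and no direction is read from this locus. With 38.3% of expressed genes at or below its control level, ZFP36 was a low to middling transcript in these cells.

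ZFP36L2, the zinc-finger relative of TTP known from oocytes and blood cells, was the member with the greatest difference. Its locus at chr2:43448497-43453853 had 53.9 FPKM in the tdTom group and 22.7 in the group labelled TTP-tdTom, 42.1% of control, a log2 ratio of -1.25. Only 4.07% of expressed genes had a ratio as low or lower. ZFP36L1, which is widely expressed, had 40.3 and 23.3 FPKM at chr14:69241054-69283076, 57.9% of control and a log2 ratio of -0.79, with 14.7% of expressed genes as low or lower. Both had high control levels, at or above 89.1% and 85.4% of expressed genes.

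As a family, the 3 genes summed to 99.7 FPKM in the tdTom group and 51.6 in the group labelled TTP-tdTom, 51.7% of control. These sums cover the loci of the 3 genes, and RNA of the TTP transgene counts in them only as far as its reads were aligned there, so they are not a total of TTP family RNA. ZFP36 held 5.57% of that sum in control and 10.7% in the other group. ZFP36L2 went from 54.0% to 44.0% and ZFP36L1 from 40.4% to 45.2%. ZFP36L2 was the most abundant family transcript in control cells and ZFP36L1 by a small margin in the other group, with ratios of ZFP36L2 to ZFP36L1 of 1.34 and 0.974. The relatives exceeded the ZFP36 locus in both groups: ZFP36L2 stood 9.69-fold above it in control and 4.10-fold in the group labelled TTP-tdTom, and ZFP36L1 7.25-fold and 4.21-fold. With no spread, neither order can be said to differ beyond error.

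**Figure D3:**
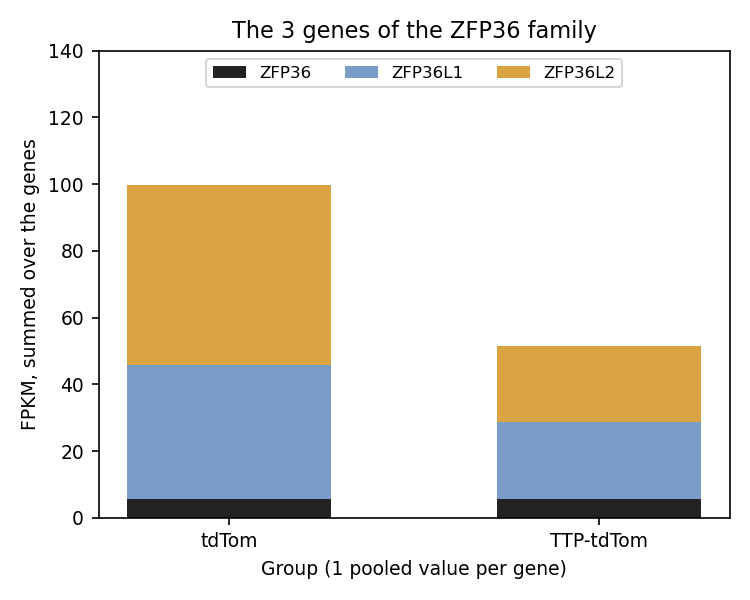
FPKM of the 3 ZFP36 family genes, stacked in 1 bar per group whose height is their sum (1 pooled value per gene and group, no error bars). ZFP36L2 and ZFP36L1 go from 53.9 and 40.3 to 22.7 and 23.3 and ZFP36 is at 5.56 and 5.54.

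HNRNPD and KHSRP, the decay-promoting proteins with other RNA-binding domains, were the most abundant of the 10 in both groups. HNRNPD, at chr4:83274467-83296220, had 218 FPKM in tdTom and 212 in the group labelled TTP-tdTom, 97.2% of control. KHSRP, at chr19:6413065-6433790, had 198 and 169.7 FPKM, 85.9% of control and a log2 ratio of -0.22, close to the median of expressed genes. The KHSRP locus is also listed under SLC25A41, a mitochondrial carrier gene, so its value cannot be split between them. Together HNRNPD and KHSRP made up 65.8% of the summed FPKM of the 10 genes in control and 73.3% in the other group. Of the 5 decay activators, 2 were lower by 1.5, against 22.8% of expressed genes, and both were ZFP36 relatives.

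The stabilisers were both modestly lower. ELAVL1, at chr19:8022554-8070529, had 27.6 FPKM in tdTom and 20.9 in the group labelled TTP-tdTom, 76.0% of control and a log2 ratio of -0.40. PCBP2, the poly(C)-binding protein at chr12:53845163-53893444, had 53.4 and 44.1 FPKM, 82.6% of control and a log2 ratio of -0.28. Neither reached a fold of 1.5, and 34.2% and 45.2% of expressed genes had ratios as low or lower. Of PCBP2's 2667 windows of 75 bases, the read length, 26.0% also occur in transcripts of other genes, mostly AC023509.1. Its reads may therefore be shared with those genes, and its value is uncertain. Whether those transcripts lie at the PCBP2 locus was not tested. The ratio of ELAVL1 to the summed ZFP36 family was 0.276 in control and 0.406 in the other group.

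Of the translational silencers, TIA1 differed more than its close relative TIAL1. TIA1, at chr2:70436383-70475961, had 18.5 FPKM in tdTom and 10.6 in the group labelled TTP-tdTom, 57.3% of control and a log2 ratio of -0.80. TIAL1, at chr10:121332733-121357406, had 12.97 and 9.63 FPKM, 74.2% of control and a log2 ratio of -0.43. The ratio of TIA1 to TIAL1 was 1.43 in control and 1.10 in the other group. AUH, at chr9:93976097-94124206, was the least abundant of the 10, at 3.35 and 2.04 FPKM, 60.8% of control and a log2 ratio of -0.72. With a pseudocount of 1 added to each FPKM its log2 ratio was -0.52, short of a fold of 1.5.

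The base composition of transcripts moved with the ratios over all genes, so each member was also set beside genes of like GC content. The 11816 matched genes were split into 10 equal classes by GC content, and the class median log2 ratio went from -0.76 in the most AT-rich to -0.090 in the most GC-rich. TIA1, with 36.6% GC, lay at the median of its class (a difference of -0.047), where 63.5% of genes were lower by 1.5. TIAL1, with 39.3% GC, lay 0.13 above the median of its own. ZFP36L2 and ZFP36L1 stood well below like genes: with 54.4% and 49.5% GC they differed from their class medians by -1.10 and -0.59, and 1.78% and 7.87% of genes there were as low or lower. AUH, with 44.8% GC, differed by -0.38. HNRNPD, an AT-rich transcript at 42.0% GC, lay 0.38 above its class median, and 85.7% of genes there were as low or lower. ELAVL1, PCBP2 and KHSRP differed by -0.14, -0.023 and -0.12, and ZFP36 by 0.10. The part of base composition in these ratios was not tested.

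**Figure D4:**
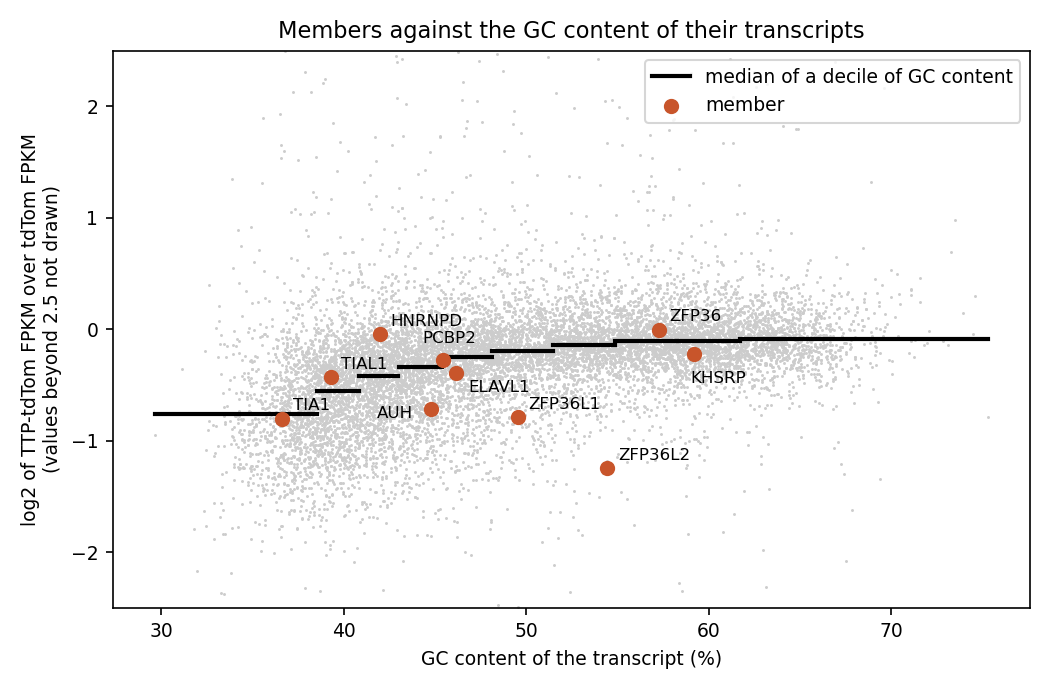
Log2 ratio (TTP-tdTom over tdTom) against the GC content of the transcript in percent, small points for expressed genes, large points for the 10 members and bars for the median of each GC class of genes; ratios beyond 2.5 are not drawn. ZFP36L2 and ZFP36L1 differ from the bar of their class by -1.10 and -0.59, whereas TIA1 lies on its bar and HNRNPD above.

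The 4 members with a nonamer included both the highest and the lowest ratio of the 10, from ZFP36 at -0.0044 through ELAVL1 at -0.40 and ZFP36L1 at -0.79 to ZFP36L2 at -1.25. The ZFP36 value may include reads of the TTP transgene, which was not tested. Its ratio may therefore not be that of the cells' own transcript. ELAVL1, ZFP36L1 and ZFP36L2 were each below the median of all expressed genes, -0.23. Among all matched genes, those with no nonamer (10729) had a median log2 ratio of -0.22 and 21.2% were lower by 1.5. Genes with 1 nonamer (832) had a median of -0.48 and 41.0% lower by 1.5. With 2 (166) the values were -0.49 and 45.8%, and with 3 or more (89) they were -0.33 and 36.0%. The classes also differ in other ways: 3′UTRs without a nonamer had a median of 1124 bases and transcripts of 48.7% GC, those with 1 had 2812 bases and 42.8% GC, and the part of each was not tested. AUH and TIA1 were lower by 1.5 without a nonamer.

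Close relatives of the members, listed by paralogy, also differed among themselves. Of 10 paralogues, 8 were expressed, all 8 had ratios below 0, 4 were lower by 1.5 and 2 by 2, with a median of -0.59. Over all expressed genes 78.5% were below 0, 22.8% lower by 1.5 and 8.65% lower by 2. FUBP3, a KH-domain relative of KHSRP, had 9.63 FPKM in tdTom and 3.07 in the group labelled TTP-tdTom, a log2 ratio of -1.65, against -0.22 for KHSRP. ELAVL2, the mostly neuronal relative of ELAVL1, had 8.13 and 3.35 FPKM, a log2 ratio of -1.28, and ELAVL1 stood 3.39-fold above it in control and 6.25-fold in the other group. ELAVL3 (0.307 and 0.212 FPKM) and ELAVL4 (0.0769 and 0.0839 FPKM) were under the level for expressed genes. HNRNPAB, a relative of HNRNPD, had 185.6 and 115.3 FPKM, a log2 ratio of -0.69, while HNRNPDL, listed under its older symbol HNRPDL, had 87.5 and 74.2 FPKM, a ratio of -0.24. Within the poly(C)-binding genes, PCBP3 had 1.18 and 0.686 FPKM, near the minimum of 1 for expressed genes, a ratio of -0.78, PCBP1 39.6 and 32.1 FPKM, a ratio of -0.30, and PCBP4 9.26 and 8.97 FPKM, a ratio of -0.047. FUBP1 had 74.9 and 53.5 FPKM, a ratio of -0.48. Of these, ELAVL2's 3′UTR held 3 heptamers and that of FUBP3 none.

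**Figure D5:**
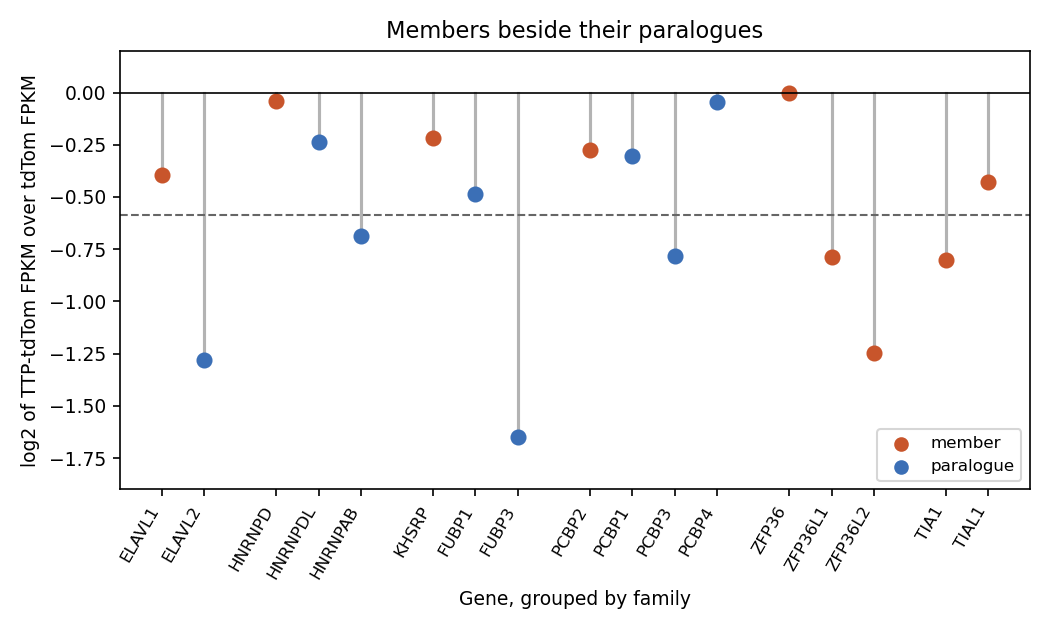
Log2 ratio (TTP-tdTom over tdTom) of 9 members, AUH left out as it has no listed relative, and their expressed paralogues, 1 value per gene with no error and a dashed line at a fold of 1.5 lower. Within families the values differ widely, as for FUBP3 at -1.65 beside KHSRP at -0.22 and ELAVL2 at -1.28 beside ELAVL1 at -0.40. GC content also differs within these families, and the ratios drawn are not set against it.

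Other regulators that bind mRNA were read in the same way. Of 37 listed, 35 were expressed, 9 (25.7%) were lower by 1.5 and none was higher, with a median of -0.36. The count lower by 1.5 is near the 22.8% of all expressed genes. Ratios below 0 were found for 34 of the 35 (97.1%), against 78.5% of all expressed genes, whose median was -0.23. The lowest were CPEB4, a cytoplasmic polyadenylation factor, with 15.6 FPKM in tdTom and 6.02 in the group labelled TTP-tdTom (log2 ratio -1.37), RC3H2 (Roquin-2), a ROQ-domain decay factor, with 16.3 and 6.92 FPKM (-1.24), and QKI, a splicing and stability regulator, with 25.1 and 11.8 FPKM (-1.10). At the other end, ZC3H12A (Regnase-1), an endonuclease for inflammatory mRNAs, had 2.17 and 2.19 FPKM, and FXR2 had 13.7 in both.

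The machinery that TTP recruits to degrade an mRNA was near the level of all genes. Of 31 effectors, all expressed, 6 (19.4%, against 22.8% of all expressed genes) were lower by 1.5 and none was higher, with a median of -0.22 against -0.23. None was lower by 2, against 8.65% of all expressed genes. DCP1A, a decapping cofactor, had 18.6 and 9.96 FPKM (log2 ratio -0.90), XRN1, the 5′ to 3′ exonuclease, 7.84 and 4.27 FPKM (-0.88), and EXOSC9, an exosome subunit, 19.5 and 10.8 FPKM (-0.86). The highest ratios belonged to EDC3, an enhancer of decapping, with 21.5 and 27.5 FPKM (0.35), GIGYF1 with 6.48 and 7.39 FPKM (0.19) and EXOSC6 with 16.7 and 18.2 FPKM (0.13), whose locus is shared with AARS.

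Of 11 kinases and binding partners of TTP, 4 were lower by 1.5, 2 of them by 2, and none was higher, with a median of -0.43. The shares over all expressed genes were 22.8% and 8.65%. PPP2CB, a catalytic subunit of the phosphatase PP2A, had 13.5 and 5.57 FPKM (log2 ratio -1.27), YWHAG, a phosphoserine-binding adaptor, 20.1 and 9.27 FPKM (-1.12), and MAPK14, the p38 kinase upstream of TTP, 4.96 and 2.69 FPKM (-0.88). MAPKAPK2, the kinase that phosphorylates TTP, had 63.3 and 65.4 FPKM (0.046), YWHAH 22.8 and 22.6 FPKM (-0.010) and MAPKAPK3 32.0 and 29.3 FPKM (-0.13).

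The labelled epithelial cell type was borne out by keratins and EPCAM: KRT8 had 20.9 and 19.1 FPKM, KRT18 98.2 and 91.5, and EPCAM 15.1 and 16.8. CDH1, a defining gene of epithelial junctions, was nearly absent at 0.119 and 0.390 FPKM. The 4 markers of other cell types, for leukocytes, endothelium, fibroblasts and hepatocytes, summed to 7.05 and 7.03 FPKM, and none of them was listed at 0. Most of that sum was the fibroblast gene COL1A1 at 4.34 and 4.56 FPKM, and the others differed in both directions. PTPRC had 0.243 and 0.566 FPKM, PECAM1 0.483 and 0.793, and ALB 1.98 and 1.12, and their part in the results was not tested.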

How the data were processed

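RNA-Seq libraries were strand-specific and sequenced in paired-end runs of 75 bases. Per the methods, the authors aligned reads with TopHat2 2.0.13 to Hs37D5, the GRCh37 assembly with decoy sequence, and computed FPKM with Cufflinks 2.2.1. The deposited table held 1 FPKM value per group at each of 406165 loci, of which 30218 carried a gene symbol. Loci without a symbol held 99.8% of the tdTom FPKM sum and 98.4% of the TTP-tdTom sum. The labels give a target depth, but the depth reached in each sample, the spread between samples and the strand of a locus cannot be read from the table. The authors' own comparison columns hold log2 fold changes, a test statistic, p-values, q-values and a significance call, and they were not used.

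Log2 ratios were computed from the deposited FPKM without a pseudocount. The design allowed for values per sample, and since the table held group values no replicate test was run. The members and all gene lists were chosen with earlier results of these data known. The genes named were the 10 members, every paralogue, and in each of the other lists the 3 lowest and 3 highest ratios among genes whose FPKM reached 1 in each group. A few genes of this rule are not reported here. Of measured symbols, 90.9% matched a GENCODE release 29 transcript with a 3′UTR, taken as the longest 3′UTR among transcripts with a coding length of at least 80% of the gene's longest. Windows shared between transcripts were sought in that set, and the genome was not searched. The functions were tested on simulated data. Scripts ran in Python 3.11.15, with matplotlib 3.10.9, pandas 2.3.3 and numpy 2.4.6. Alternatives were pseudocounts of 0.1 and 1, other locus choices, minimum FPKM, fold, rescaling, centring and, added after seeing the data, centring by GC content.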

Additional observations from a re-analysis of the deposited data

How the results depend on the processing

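The median log2 ratio of the 10 members, -0.41, was -0.41 and -0.39 with pseudocounts of 0.1 and 1, -0.36 with both groups scaled to equal totals over named loci, -0.18 after centring on the median of expressed genes, -0.082 after centring by GC content (chosen after seeing the data), and 2.68 with equal totals over every locus. The median of expressed genes used for centring was -0.23, and equal totals over every locus add 3.09 to each log2 ratio. The count of members lower by 1.5, 4, was 1 after centring, 0 with equal totals over every locus (10 were then higher), 1 at a fold of 2, 2 after centring by GC content and 3 with a pseudocount of 1, where AUH was at -0.52. Over all genes the 2971 lower by 1.5 became 1769 after centring (818 higher), 10 with equal totals over every locus (12962 higher), 1125 at a fold of 2 (319 higher), 1586 with a minimum FPKM of 10 (40 higher), 4154 for all symbols above 0 in both groups (2725 higher) and 3142 when the loci of a symbol were summed (1021 higher), against 507 higher as reported. With equal totals over every locus, ZFP36L1, ZFP36L2, TIA1 and AUH stood at 2.30, 1.85, 2.29 and 2.37. Equal totals over named loci put ZFP36 and HNRNPD above 0. No paired analysis was possible because the table holds 1 value per group, and leaving out a replicate was not run for the same reason. With 1 pooled FPKM value per group no interval can be given.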

Other observations

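Loci next to or across the members gave a further reading of the same regions. Of 20 neighbouring symbols, 14 were expressed, 10 of these had ratios below 0 and none differed by a fold of 1.5, with a median log2 ratio of -0.096. Over all expressed genes 78.5% were below 0 and 22.8% lower by 1.5, with a median of -0.23. Next to ZFP36L1, the DNA repair gene RAD51B had 12.0 FPKM in tdTom and 12.6 in the group labelled TTP-tdTom, and the actin crosslinker ACTN1 had 243.9 and 201.4. Next to ZFP36, the Mediator subunit gene MED29 had 10.6 and 10.4 FPKM. Next to TIA1, C2orf42 had 4.68 and 6.24 FPKM (log2 ratio 0.41) and PCYOX1 27.6 and 22.2 (-0.31). TIA1 and C2orf42 share 137 windows of 75 bases, 3.00% of those of TIA1.

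Across 4 of the 10 members lay 6 further loci, at 0.766 to 3.31 FPKM in tdTom and 0.743 to 2.81 in the group labelled TTP-tdTom. They included other entries of ZFP36L1, at 0.766 and 0.743 FPKM (log2 ratio -0.044) and 1.48 and 1.37 FPKM (-0.11). Summed over all its loci, ZFP36L1 had a log2 ratio of -0.74. Across PCBP2 lay MAP3K12, at 3.31 and 2.81 FPKM (-0.23). The 3 without a symbol were higher in the latter, at ZFP36L1 (0.813 and 0.877), ZFP36L2 (0.797 and 0.817) and TIAL1 (0.860 and 1.16). The table gives no strand for them.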
